A study of Mus musculus with 12 samples.

Results

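The genes described here are 7 genes by which photoreceptors handle vitamin A derivatives: Abca4, Rdh8, Rdh12, Rbp3, Rdh11, Rdh13 and Dhrs3. They were taken from a list of names, found by matching the Ensembl identifiers of the count tables to mouse gene symbols. They make up 7 of the 54146 genes counted, and all 7 passed the filter on low counts, which left 18628 genes to test. Their summed counts took 0.523% to 1.26% of the gene counts of a retina.

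In a photoreceptor, light turns the 11-cis retinal bound to opsin into all-trans retinal, which has to be cleared from the outer segment, reduced to retinol and carried to the retinal pigment epithelium (RPE) to be turned back into 11-cis retinal. ABCA4 moves retinal bound to a membrane lipid across the disc membrane, the retinol dehydrogenases RDH8 and RDH12 reduce free all-trans retinal in the outer and inner segment, and RBP3 (also called IRBP) carries retinoids through the matrix between photoreceptors and RPE. OTX2 and the related factor CRX are homeodomain proteins that bind the promoters of many photoreceptor genes.

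The study asked which transcripts of the adult retina change in the days after Otx2 is deleted in photoreceptors. RNA was sequenced from 12 mice on a 129/SV background, 3 at each of 4 ages, and each library held RNA of a whole retina with its RPE. The controls were taken at P30, and the cKO mice at P32, P34 and P38, which is 2, 4 and 8 days after tamoxifen was injected once at P30. The cKO mice carried Crx-CreERT2, a Cre recombinase that acts only with tamoxifen and is driven by the Crx promoter, which is active in photoreceptors, together with 2 floxed Otx2 alleles (Otx2 flox/flox). The labels call the P30 genotype control and say no more, mice of both sexes were used, and all cKO mice were older than all controls and had received tamoxifen. Deletion, tamoxifen and age therefore cannot be told apart in a comparison with P30. In a whole retina, fewer cells of a type and less RNA per cell also cannot be told apart.

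Stretches upstream of 4 of the genes are shown because Abca4, Rbp3 and, less closely, Rdh8 had levels that varied together over the mice, and Rdh12 is set beside them. They are the 250 bases before the start site, from RefSeq on GRCm38.p6, read 5′ to 3′ along the gene. Capitals mark TAATC on either strand, so that a match on the opposite strand is read along the gene as its reverse complement, and they extend over TAATCC where that longer word is present. TAATCC is the core sequence bound by OTX2 and CRX. Every TAATCC holds a TAATC, so the shorter word counts both.
Abca4, chr3:122044210-122044459, + strand: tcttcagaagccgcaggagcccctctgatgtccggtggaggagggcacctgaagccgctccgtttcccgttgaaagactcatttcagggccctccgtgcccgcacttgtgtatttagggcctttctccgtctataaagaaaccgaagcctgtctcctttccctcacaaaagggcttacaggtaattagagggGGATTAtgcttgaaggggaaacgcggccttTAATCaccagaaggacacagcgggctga
Rbp3, chr14:33953753-33954002, + strand: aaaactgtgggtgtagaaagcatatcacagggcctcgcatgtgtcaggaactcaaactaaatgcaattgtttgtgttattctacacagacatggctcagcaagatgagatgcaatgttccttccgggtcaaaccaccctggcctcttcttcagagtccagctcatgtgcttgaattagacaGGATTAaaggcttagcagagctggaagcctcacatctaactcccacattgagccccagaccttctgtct
Rdh12, chr12:79208663-79208912, + strand: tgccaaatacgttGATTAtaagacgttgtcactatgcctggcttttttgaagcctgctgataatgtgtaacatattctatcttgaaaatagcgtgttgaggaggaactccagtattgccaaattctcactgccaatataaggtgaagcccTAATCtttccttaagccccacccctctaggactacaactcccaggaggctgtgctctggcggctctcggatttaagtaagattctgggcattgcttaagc
Rdh8, chr9:20818244-20818493, + strand: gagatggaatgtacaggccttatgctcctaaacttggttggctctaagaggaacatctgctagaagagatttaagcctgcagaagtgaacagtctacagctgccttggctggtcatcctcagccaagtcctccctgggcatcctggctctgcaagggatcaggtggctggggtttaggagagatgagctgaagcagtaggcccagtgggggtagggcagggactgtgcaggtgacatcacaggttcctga
TAATCC was found upstream of Rbp3, 69 to 64 bases before the start, and of Abca4, 58 to 53 bases before it, in both cases on the opposite strand. Of all 32851 promoters in the table, 6.25% held TAATCC in the same window, and 19.8% held TAATC. Abca4 had a second TAATC 28 to 24 bases before the start, and Rdh12 had 2 copies, at 237 to 233 and 100 to 96 bases. The Rdh8 stretch held neither. Promoters of 6 of the 7 genes were in the table, with 2 start sites for Rdh11 and 3 for Dhrs3. Rdh13 has none there. TAATC was also found at 1 of the 2 Rdh11 start sites and 2 of the 3 Dhrs3 start sites, and the matching Dhrs3 windows overlap. TGCTGA, which makes up part of the sites of the rod factor NRL, was found upstream of Rdh12 and Rbp3, against 16.1% of all promoters. AGGTCA, a word in the sites of many nuclear receptors, was found at 1 Rdh11 start site, against 14% of all promoters. All 4 words were sought on both strands. A match of letters is a description, and binding was not measured.

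Libraries held 29701483 to 60145034 counts on genes, and all 7 members had at least 26.6 CPM in every mouse, where CPM is a gene's count divided by the library total, scaled to a common size. Otx2 itself lay between 293 and 377 CPM in all 12 libraries. The deletion removes an exon without lowering the transcript, so this gene count does not check the labels. The rod markers are plain in every library, with a summed level of 12 genes between 67373 and 121920 CPM. Counts of Xist and Y-linked genes showed 3 female P30 controls, and 1, 2 and 2 males among the 3 mice at P32, P34 and P38. Among the P32 mice, mouse 4 stood apart from the other 2: it had the highest share of reads that aligned to more than 1 place of all libraries (32.15%, against 23.68% to 29.31% in the others) and the lowest Rbp3, Abca4, Rdh8 and Rdh13. It was also the 1 male at P32 and had the highest summed level of lens markers of all 12 mice, 45771 CPM. The part of these in its values was not tested.

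Per kb of exon, the 7 genes spanned more than 2 orders of magnitude. In P30 controls, Rbp3 was at 1077 ± 187 RPKM (counts scaled to depth and exon length, mean ± SD, n = 3 mice). Rdh12 followed at 182 ± 5.37 RPKM and Abca4 at 128 ± 13.3 RPKM. Rdh8 was at 67.7 ± 9.28 RPKM. Dhrs3 was at 32.9 ± 7.83 RPKM and Rdh11 at 22.8 ± 1.22 RPKM, and Rdh13 was lowest at 4.84 ± 0.235 RPKM. Only Dhrs3 (23.8 to 37.7 RPKM) and Rdh11 (21.6 to 24.0 RPKM) were neighbours whose P30 ranges overlapped. The order of Rdh12 and Abca4 depends on the gene model. Counted per kb of the longest transcript (7263 bases for Abca4, against 12022 bases over all its exons), Abca4 was at 211 RPKM and Rdh12 at 196 RPKM, and the other 20 of the 21 pairs of genes kept their order. At P38 the means of Abca4 (183 RPKM) and Rdh12 (177 RPKM) were close, and their ranges overlapped.

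**Figure D1:**
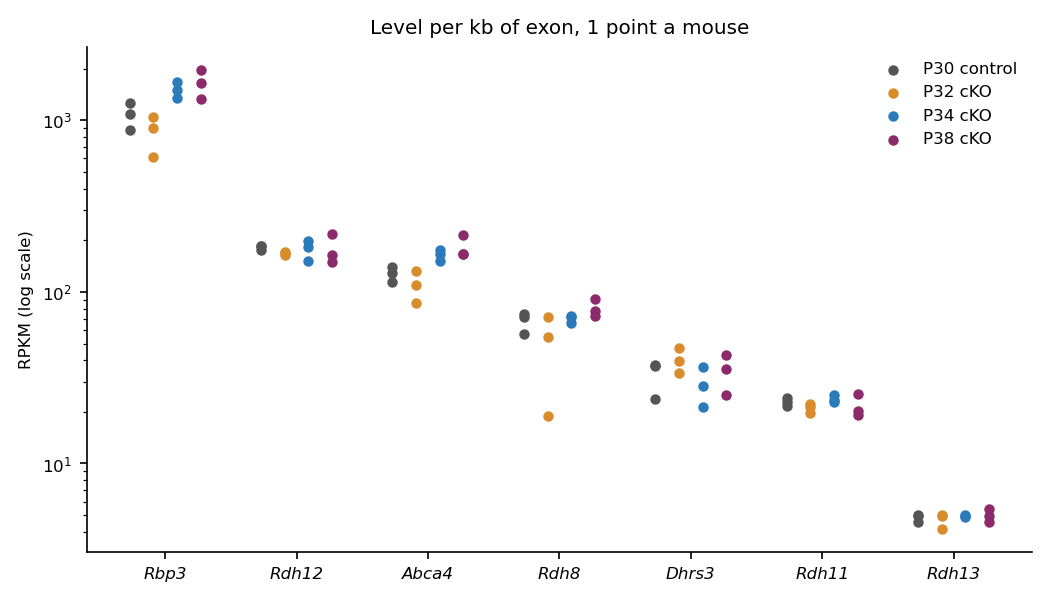
RPKM (log axis) of the 7 genes, ordered by their P30 mean, with 1 point a mouse and a colour for each age. Rbp3 lay above every other gene in all 12 mice (611 to 1968 RPKM) and Rdh13 below every other (4.13 to 5.39 RPKM), while the single low Rdh8 point at P32 (19.0 RPKM) is mouse 4.

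Rbp3 and Abca4 were the members with the highest cKO levels relative to P30, at P34 and P38. Neither difference passed the test over all genes. Rbp3 encodes the retinoid carrier of the matrix around the photoreceptors (chr14:33954003-33964216, + strand, 1 transcript). It was measured at 4676, 5785 and 6649 CPM in the 3 P30 controls and at 3235, 4750 and 5551 CPM at P32. The P34 mice gave 8924, 7174 and 7946 CPM, while 10419, 7096 and 8728 CPM were found in the P38 mice. All 6 mice at P34 and P38 lay above all 6 mice at P30 and P32, whereas the P30 and P32 mice overlapped. Set against P30 on the log2 scale, P32 mice differed by −0.34 ± 0.22 (SE), P34 mice by 0.49 ± 0.22 and P38 mice by 0.62 ± 0.22, the last a level 53.4% higher. Adjusted p of edgeR's quasi-likelihood test over all genes was 0.698, 0.477 and 0.847.

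Abca4 encodes the transporter of the disc rim (chr3:122044443-122180123, + strand, 10 transcripts). It had 1369, 1550 and 1689 CPM in the P30 controls and 1040, 1327 and 1584 CPM at P32. Levels of 2117, 1995 and 1819 CPM were found in P34 mice, and of 2589, 1995 and 2005 CPM in P38 mice. The same 6 older cKO mice were above every P30 and P32 mouse. Log2 differences from P30 came to −0.22 ± 0.17 (SE) for P32, 0.36 ± 0.17 for P34 and 0.52 ± 0.17 for P38, with adjusted p of 0.703, 0.498 and 0.847 in the edgeR fit. The gene overlaps 2 pseudogenes on the opposite strand, Gm43158 over 55018 bases and Gm43157 over 412 bases, and the strand setting of the counting is not given in the sources used here, so reads of these could not be kept apart with certainty.

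Rdh8, the outer segment dehydrogenase (chr9:20818503-20826117, + strand), was the member with the widest spread at P32. The P30 controls had 80.2, 104 and 101 CPM, and the P32 mice 26.6, 76.9 and 101 CPM. Values of 92.1, 100.3 and 101 CPM were measured at P34, and 128, 102 and 108 CPM at P38. Mouse 4 lay far below the other 11 mice, which stayed between 76.9 and 128 CPM. The P32 difference of −0.48 ± 0.34 (SE, log2) became −0.10 without this mouse. At P34 and P38 the differences were 0.04 ± 0.33 and 0.24 ± 0.33. With sex as a term in the fit they were 0.41 and 0.63 (adjusted p of 0.615 and 0.531 with edgeR), and all 3 controls were female.

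Rdh12, the inner segment enzyme whose human counterpart is mutated in early-onset retinal dystrophy (chr12:79208914-79222665, + strand), had 547, 550 and 521 CPM in the controls. At P32 it had 486, 505 and 502 CPM, at P34 585, 540 and 451 CPM, and at P38 645, 443 and 486 CPM. All P32 mice lay just below all controls, a log2 difference of −0.12 ± 0.14 (SE), and the P34 and P38 mice lay on both sides of the controls, with differences of −0.04 ± 0.14 at both ages. The SD between mice was 2.95% of the mean in controls and 20.4% at P38.

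Rdh11, a related microsomal retinal reductase found in many tissues (chr12:79174337-79192293, − strand), is the direct neighbour of Rdh12, 16620 bases away and transcribed in the opposite direction. It had 82.9, 78.4 and 74.6 CPM in the controls and 68.5, 76.7 and 74.0 CPM at P32. The P34 retinas held 86.1, 80.9 and 78.9 CPM, the P38 retinas 87.6, 66.1 and 70.1 CPM. Its differences from P30 were −0.11 ± 0.11, 0.06 ± 0.11 and −0.08 ± 0.11 (log2 ± SE) at the 3 ages, with overlapping mice at each.

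Rdh13, a mitochondrial member of the family (chr7:4424770-4445649, − strand), lay between 27.2 and 35.6 CPM in all 12 mice, with group means of 31.9 ± 1.55 (SD) at P30, 31.0 ± 3.29 at P32, 32.5 ± 0.391 at P34 and 32.7 ± 2.71 CPM at P38 (n = 3 each). The 95% intervals of its 3 log2 differences from P30 lay between −0.26 and 0.26, so that changes past the 0.5 limit lay outside them.

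Dhrs3, a retinal reductase that lowers the supply of retinoic acid (chr4:144892827-144928209, + strand), had an SD of 16.6% to 26.3% of its mean within groups. It had 108, 110 and 69.7 CPM in the controls, and 138, 98.7 and 116 CPM at P32. Later levels were 83.0, 62.4 and 107 CPM (P34) and 126, 73.8 and 104 CPM (P38). Mice of every age overlapped those at P30. Against P30 the log2 difference was 0.29 ± 0.24 (SE) for P32, −0.20 ± 0.24 for P34 and 0.07 ± 0.24 for P38. Dhrs3 was the only member with a positive difference at P32.

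**Figure D2:**
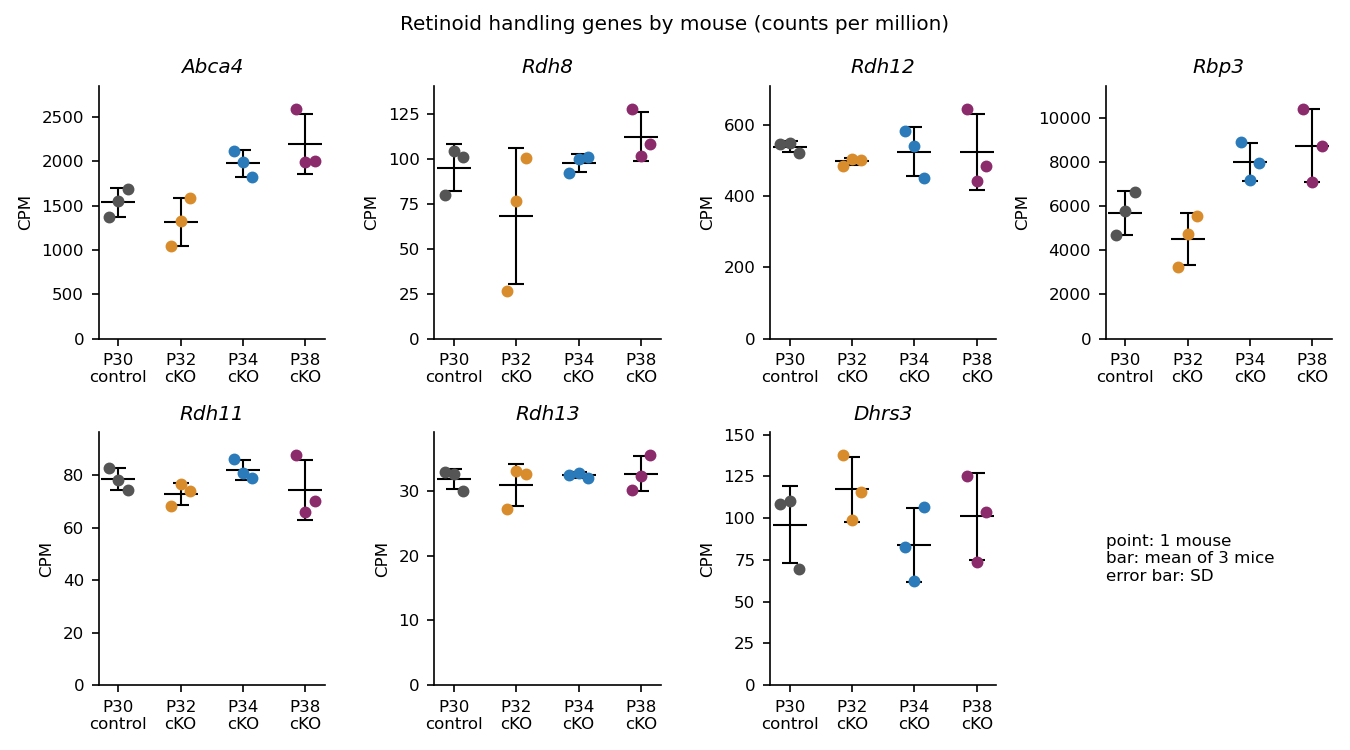
CPM of each gene by mouse, with the mean of 3 mice (bar) and the SD (error bar) at each age; every axis starts at 0. For Abca4 and Rbp3 the 6 points at P34 and P38 lie above the 6 points at P30 and P32, and for the other 5 genes the P30 points overlap those of P34 and P38.

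A member was called changed at an adjusted p of at most 0.05 over all genes and a log2 difference of at least 0.5 in size. By this rule 0 of 7 members were called against P30 at P32, P34 or P38 with edgeR, and 0 with DESeq2. For P32, P34 and P38 in turn, 0%, 0.66% and 0% of all genes tested were called with edgeR and 0.134%, 1.98% and 0.242% with DESeq2. With an unadjusted p of at most 0.05 and the same fold limit, 0 members passed at P32 (2.9% of all genes) and 0 at P34 (6.27%). At P38, 2 passed in the edgeR fit, Abca4 (unadjusted p of 0.0117, adjusted 0.847) and Rbp3 (unadjusted p of 0.0176, adjusted 0.847), both higher, against 0.805% of all genes higher and 3.46% in either direction. Rbp3 at P34 lay just under the fold limit. P30 mouse 1 had the lowest Rbp3 and Abca4 of the controls. Without it, Rbp3 differed from P30 by 0.37 at P34 and 0.49 at P38, and Abca4 by 0.29 and 0.44. Without P38 mouse 10, which had the highest summed level of rod markers, the P38 differences were 0.48 for Rbp3 and 0.39 for Abca4, so that leaving out either mouse put both genes under the fold limit at P38. Other fits gave higher values. With sex as a term, Rbp3 was at 0.64 and 0.76 at P34 and P38, and Abca4 at 0.39 and 0.54. The highest values on leaving out 1 mouse were 0.61 and 0.75 for Rbp3, and 0.43 and 0.59 for Abca4. Over these alternatives the lowest adjusted p was 0.235, for Abca4 at P38 with DESeq2. The mean of the 3 cKO ages against P30 also called 0 members (0.36% of all genes, all lower), 0 with DESeq2 (0.811%) and 0 at an unadjusted p with the fold limit (2.95%).

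Ranges of mice apart from the controls were counted too. At P34, 2 members lay wholly above P30 (10.4% of all genes did so) and at P38 the same 2, Abca4 and Rbp3 (8.23%). At P32, 1 member, Rdh12, lay wholly below (4.39%). For P32, P34 and P38 in turn, the 7 members had a median log2 difference of −0.12, 0.04 and 0.07, and all genes one of −0.01, −0.00 and −0.01. The 95% intervals of Rdh8, not corrected for the number of genes, were wide. They reached from −1.21 to 0.25 at P32, −0.69 to 0.77 at P34 and −0.49 to 0.97 at P38. Changes past the 0.5 limit lay within each.

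**Figure D3:**
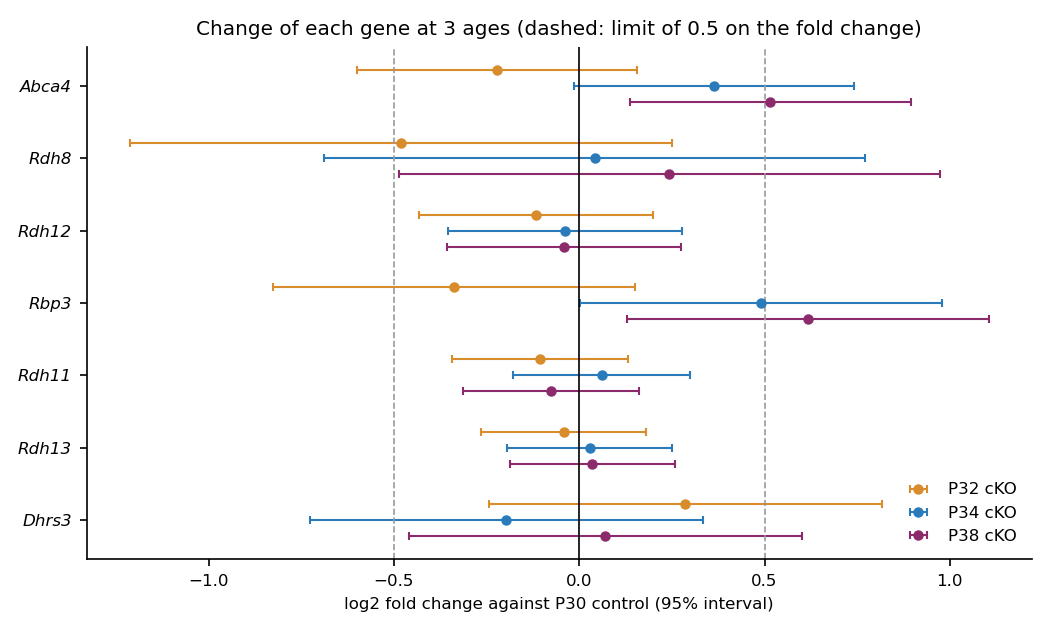
Log2 difference from P30 control with its 95% interval for each gene at P32, P34 and P38, from the edgeR fit; dashed lines mark the limit of 0.5. Only the intervals of Abca4 at P38 (0.14 to 0.89) and of Rbp3 at P34 (0.00 to 0.98) and P38 (0.13 to 1.11) lie above 0, and they are not corrected for the number of genes.

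The cKO ages were also compared with each other, all of which share genotype and tamoxifen treatment. They differ in age and in days since tamoxifen, which cannot be told apart, in sex (1, 2 and 2 males of 3 at P32, P34 and P38) and in lens markers, whose summed level was 749 to 45771 CPM at P32, 280 to 765 CPM at P34 and 5320 to 13674 CPM at P38. The part of the lens markers in the values was not tested. Rbp3 was higher than at P32 by 0.83 ± 0.22 (log2 ± SE) at P34 and by 0.96 ± 0.23 at P38, the latter a level 93.9% higher. Abca4 was higher by 0.59 ± 0.17 at P34 and by 0.74 ± 0.17 at P38. These differences did not pass in the edgeR fit, with adjusted p of 0.0949 and 0.114 for Rbp3 and 0.0963 and 0.114 for Abca4, and passed with DESeq2, with adjusted p of 0.00529 and 0.00148 for Rbp3 and 0.0115 and 0.00179 for Abca4. So 0 of 7 members were called by edgeR and 2 by DESeq2 in both comparisons, where edgeR called 0.242% and 0% of all genes and DESeq2 7.55% and 5%, and 2 had an unadjusted p within 0.05 past the fold limit (5.49% and 5.68% of all genes higher, 14.4% and 11.9% in either direction). Over the alternatives, adjusted p of Rbp3 ranged from 0.00529 to 0.235 for P34 and from 0.00148 to 0.276 for P38, and that of Abca4 from 0.0115 to 0.439 and from 0.00179 to 0.276.

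These differences changed with the scaling and with single P32 mice. Scaled to the summed counts of 12 rod genes, Rbp3 was higher than P32 by 0.41 at P34 and 0.48 at P38, and Abca4 by 0.17 and 0.27, with the median gene at −0.43 and −0.46. Without mouse 4, the lowest of the P32 mice, Rbp3 at P34 was higher than P32 by 0.64 and Abca4 by 0.44. Without mouse 6, the highest, the differences were 1.01 and 0.74, and both genes were called at P34 (adjusted p of 0.0207 and 0.0212), as were 14.3% of all genes. At P38, 3 members were called without mouse 6, Abca4, Rbp3 and Rdh8, and 10.2% of all genes. Rdh8 was higher at P38 than at P32 by 0.72 ± 0.34, or by 0.34 without mouse 4 and by 1.12 without mouse 6, and Dhrs3 was lower at P34 than at P32 by a log2 difference of −0.48 ± 0.24, with overlapping mice. Mice at P34 lay wholly above P32 for Abca4, Rbp3 and Rdh11 (14.8% of all genes), and mice at P38 wholly above P32 for Abca4, Rdh8 and Rbp3 (13.3%).

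P38 and P34 were close. Log2 differences were 0.15 ± 0.17 for Abca4, 0.13 ± 0.22 for Rbp3, 0.20 ± 0.33 for Rdh8 and 0.27 ± 0.24 for Dhrs3. Again 0 members were called with edgeR (0.199% of all genes) and 0 with DESeq2 (0.773%), and 0 had an unadjusted p within 0.05 past the fold limit (3.81%). Rdh8 was the 1 member with all P38 mice above all P34 mice (5.36% of all genes), by 101.5 against 101.5 CPM at the nearest mice.

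Over the 12 libraries, 5 of the 21 pairs of members had a Pearson r of log2 CPM of at least 0.5, of which 3 were among Abca4, Rbp3 and Rdh8. Abca4 and Rbp3 had r = 0.975 (Spearman's coefficient 0.963), which was 0.944 without the 2 mice farthest from the median of Abca4 and 0.911 for deviations from the mean of each age. Rdh8 had r = 0.799 with Abca4 and 0.808 with Rbp3, with lower Spearman's coefficients of 0.644 and 0.664. Without the 2 mice farthest from the median of Abca4 the first was 0.655, and without the 2 farthest from the median of Rdh8 the second was 0.678. The neighbours Rdh12 and Rdh11 had r = 0.812 (Spearman's coefficient 0.811), or 0.65 without the 2 mice farthest from the median of Rdh12, and 0.885 for deviations from the age means. Rdh8 and Rdh13 had r = 0.653, which became −0.322 without mouse 4. All genes of a library share its depth and make-up, so these values are a description and carry no test.

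**Figure D4:**
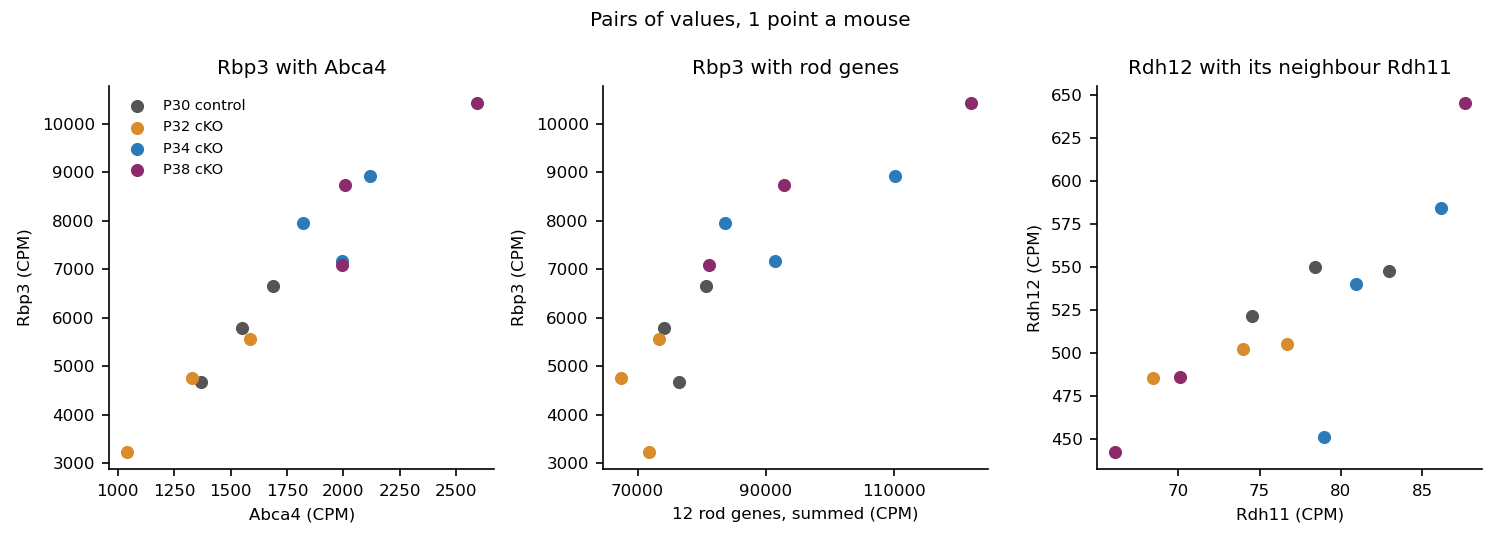
CPM of Rbp3 against Abca4 (left), of Rbp3 against the sum of 12 rod genes (middle) and of Rdh12 against its neighbour Rdh11 (right), with 1 point a mouse and a colour for each age; axes do not start at 0. In the left panel the 6 mice at P34 and P38 lie above and to the right of the 6 at P30 and P32, and in the right panel P38 mouse 10 is highest for both genes (87.6 CPM of Rdh11 and 645 CPM of Rdh12).

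Among the other 18621 genes tested, those most like each member over the 12 libraries were ranked by Pearson r of log2 CPM. Most like Rbp3 were Slc24a1 (0.990), which encodes the rod sodium, calcium and potassium exchanger, Sv2b (0.989), a synaptic vesicle protein, and Hk1 (0.981), a hexokinase. Most like Abca4 were Mef2c (0.987), a transcription factor, the same Slc24a1 (0.985) and Agpat3 (0.978), an enzyme of phospholipid synthesis. Slc24a1 was thus named for both. For Rdh8 they were Tigar (0.988), Strn3 (0.987) and Tent4b (0.982), for Rdh12 Mipep (0.927), Wdr92 (0.904) and the rod channel subunit gene Cnga1 (0.903). The r values of Rdh8 include mouse 4, where it was far lower than in the other mice, and were not computed without it. For Rdh11, Api5, Gm3222 and Orc2 had r of 0.909, 0.897 and 0.888. For Rdh13 they were Dph1, Rsad1 and Gba2 (0.897, 0.890 and 0.878), and for Dhrs3 they included Mmd2 and Lsmem1 (0.900 and 0.891).

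The rod genes were also at higher levels in the older cKO mice, and their part in the values of Abca4 and Rbp3 was not tested. The summed level of 12 rod markers was 74165 to 80720 CPM at P30, 67373 to 73293 CPM at P32, 83672 to 110100 CPM at P34 and 81190 to 121920 CPM at P38, so P34 and P38 lay above P30 and P32. Differences from P30 were positive for 12 of the 12 markers at P34 (median log2 0.20) and for 11 of 12 at P38 (median 0.27), and 0 were called with edgeR. The summed level of 10 cone markers stayed between 1716 and 2236 CPM over all mice. When libraries were scaled to the rod sum instead of to all genes, the median gene shifted to −0.29 at P34 and −0.33 at P38 against P30, Rbp3 was at 0.20 and 0.27, and Abca4 at 0.07 and 0.17. Rdh12 was at −0.34 and −0.40. Such a scaling shifts all genes nearly alike, so a gene's distance from the median gene is not new information. Through this shift, values near 0 changed sign, from positive to negative for Rdh8, Rdh11 and Rdh13 at P34 (−0.24, −0.23 and −0.26) and for Rdh8, Rdh13 and Dhrs3 at P38 (−0.10, −0.28 and −0.30). At P32, where the median gene was at 0.11, Rdh12, Rdh11 and Rdh13 moved to 0.00, 0.02 and 0.08.

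RPE genes could also enter, since the RPE was in the sample. The summed level of 8 RPE markers was 94.1 to 263 CPM at P30, 102 to 191 CPM at P32, 141 to 231 CPM at P34 and 133 to 263 CPM at P38, overlapping at all ages, with none of the 8 at 0. Ttr (transthyretin), at 28.4 to 99.5 CPM, had the highest mean of them at P30. Markers listed for lens, melanocytes and smooth muscle had wider ranges. The summed level of 8 lens markers, led by the crystallin gene Cryaa, ran from 280 CPM in a P34 mouse to 45771 CPM in a P32 mouse. The 6 melanocyte markers are pigment genes, which the RPE also expresses. Their summed level was 116 to 820 CPM at P30, 29.8 to 114 CPM at P32, 38.6 to 54.1 CPM at P34 and 30.0 to 129 CPM at P38, so that P32 and P34 did not overlap P30. The summed level of 6 smooth muscle markers was 29.5 to 198 CPM, 11.04 to 48.7 CPM, 9.33 to 13.9 CPM and 16.7 to 22.7 CPM at the same ages, with P34 and P38 below P30. Of these, 2 of 6 melanocyte markers and 4 of 5 smooth muscle markers tested were called lower with edgeR at P34 than at P30. At P32 or P38 0 of either were called, and 5 and 4 for the mean of the cKO ages. By unadjusted p and the same fold limit, 6, 6 and 6 melanocyte and 3, 4 and 4 smooth muscle markers were lower at P32, P34 and P38. P30 mouse 1 was the low control for both sums, with 116 CPM of melanocyte and 29.5 CPM of smooth muscle markers. P30 mice 2 and 3 had 820 and 669 CPM, and 181 and 198 CPM. The part of these cells in the members' values was not tested. Summed levels of Müller glia (4395 to 5097 CPM), bipolar (1181 to 1544 CPM), endothelial (171 to 302 CPM) and microglial markers (31.6 to 46.5 CPM) overlapped P30 at each cKO age except for Müller glia at P38. With edgeR, 0 of their markers were called against P30.

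The wider retinoid pathway was listed as 61 other genes, of which 60 were counted and 47 tested. In the 7 comparisons 1 of the 47 was called with edgeR, at P34 against P30. It was Aldh1a3, which encodes an enzyme that makes retinoic acid from retinal. It was scarce, with 1.70, 1.49 and 2.44 CPM at P30 and 0.387, 0.0980 and 0.440 CPM at P34, where it fell by 2.63 ± 0.45 on the log2 scale (SE, adjusted p = 0.0205 in the edgeR fit). At P32 it had 1.35, 1.03 and 0.961 CPM, and at P38 1.65, 1.60 and 0.849 CPM. It was not called when control mouse 3 or any 1 of the 3 P34 mice was left out, with adjusted p of 0.0576 to 0.0862, and over all alternatives adjusted p ranged from 2.56e-06 to 0.0862. Levels of other lists were also low at P34. The melanocyte and smooth muscle sums lay below those of all P30 mice, and the lens sum was 280 to 765 CPM against 532 to 39457 CPM at P30, with 8 of 8 lens markers negative (median log2 −4.97, 0 called with edgeR, 8 at an unadjusted p past the fold limit). Their part in the values of Aldh1a3 and Aldh1a1 was not tested. Its relative Aldh1a1 was at 128, 62.6 and 106 CPM at P30 and 34.9 to 46.0 CPM at P34, a log2 difference of −1.32 ± 0.53 with adjusted p of 0.424.

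In the other groups of the pathway 0 genes were called with edgeR in any of the 7 comparisons. Of 8 opsin and arrestin genes, 0 were called, and Sag, rod arrestin, was at 0.13 ± 0.25 (log2 ± SE) at P34 and 0.34 ± 0.25 at P38. Of 9 visual cycle genes of the RPE and Müller glia, which include the retinal binding protein gene Rlbp1 (388 to 604 CPM over all mice) and Degs1 (63.1 to 87.4 CPM), 0 were called. The same was true of the 9 other retinol dehydrogenases and reductases tested, led by Adh5 (75.9 to 117 CPM) and Dhrs7 (23.2 to 41.7 CPM). It was true of 10 genes of retinoid uptake and carriage, led by the retbindin gene Rtbdn (599 to 869 CPM) and Scarb1 (105 to 146 CPM), and of the 6 retinoic acid and retinoid X receptors, led by Rxra (47.0 to 68.4 CPM) and Rxrb (55.5 to 71.7 CPM). Over the 47 genes the median log2 difference from P30 was 0.01, −0.06 and −0.01 for the 3 ages in turn.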

How the data were processed

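Whole retinas of 12 mice were sequenced, 3 for each of 4 groups. Per the labels, the authors' processing used bcl2fastq 2.17.1.14, STAR 2.5.3a and HTSeq 0.6.1p1 with mm10, and deposited raw read counts per Ensembl gene (release 93) and library; the strand setting of the counting is not given in the sources used here. Whether replicates are separate litters is not stated, so p-values measure the spread between these mice. Identifiers were matched to symbols for 99.9% of 54146 genes. Counts were fitted with edgeR 4.0.16 (TMM scaling, filterByExpr, quasi-likelihood test, 1 mean per group, all 12 libraries), with Benjamini-Hochberg adjustment over 18628 genes; 7 comparisons were made. CPM and RPKM use TMM-scaled library sizes and exon lengths of GENCODE M21 on GRCm38. Log2 CPM has a prior count of 2. Alternatives were other scalings, filters and tests (DESeq2 1.42.0, R 4.3.3), sex as a term and leaving out each mouse. Named genes were all members, pathway genes called or among the 2 highest at P30 in a subgroup, the highest marker of a list and the 3 genes most like each member. Adh1 was added because the paper lists it as downregulated. Members and lists were chosen with earlier results of these data known. No mice were paired, since the titles number them 1 to 12. Libraries within a group differed by more than counting noise. Some genes that the rule names are not reported here.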

Additional observations from a re-analysis of the deposited data

Results flagged for a closer look

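Rdh8 in P32 mouse 4 was 26.6 CPM, far below the other 8 cKO mice (76.9 to 128 CPM). Its gap to the next mouse was 0.495 of the range of the 9 cKO mice, just past Dixon's 95% critical value of 0.493. By chance about 1 in 20 such groups pass, and 7 genes were examined, over 9 mice of 3 ages.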

How the results depend on the processing

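Alternatives were run for all pairs of a member and a comparison, and values were then kept for 33 of the 49. Those left out were Rdh11, Rdh12 and Rdh13 between cKO ages and all members for the mean of the cKO ages. Of the 726 values kept, 685 kept direction and side of the threshold, 22 changed sign and 19 passed the threshold of their setting, which none had passed before. Some of the 19 passed only because the setting was an unadjusted p, among them Abca4 and Rbp3 at P38 against P30. Scaling to 12 rod genes, which shifts all genes nearly alike, changed the sign at P32 of Rdh12 (0.0047), Rdh11 (0.016) and Rdh13 (0.080), at P34 of Rdh8 (−0.24), Rdh11 (−0.23) and Rdh13 (−0.26), and at P38 of Rdh8 (−0.096), Rdh13 (−0.28) and Dhrs3 (−0.30), all against P30. With sex as a term Rdh13 at P32 was 0.0016, and at P34 and P38 Rdh8 was 0.41 and 0.63, Rdh12 −0.14 at both and Rdh13 0.13 at both. Leaving out each mouse gave ranges across 0 for Rdh13 (P32, −0.091 to 0.044; P34, −0.021 to 0.052; P38, −0.029 to 0.099), Rdh12 at P34 (−0.13 to 0.044) and P38 (−0.21 to 0.068), Rdh8 at P34 (−0.067 to 0.11), Rdh11 at P38 (−0.20 to 0.0045), Dhrs3 at P38 (−0.12 to 0.25), and Rbp3 at P38 against P34 (−0.017 to 0.26). The cause of changes with sex or single mice was not tested.

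Members called rose from 0 to 2 at P38 against P30 with an unadjusted p (3.46% of all genes). At P34 against P32, 1 was called with rod scaling (Dhrs3, lower, as were most of the 23.3% of all genes called), 1 with no filter (Rbp3, 1.93%), 2 with DESeq2 (7.55%), 2 with an unadjusted p (14.4%) and 0 to 2 when a mouse was left out. At P38 against P32 the numbers were 1 (25.5% of all genes), 1 (0.591%), 2 (5%), 2 (11.9%) and 0 to 3.

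Over all genes, counts called also moved. P34 against P30 had 123, and 230 with rod scaling, 298 with no filter, 369 with DESeq2 and 229 with only these groups fitted. P34 against P32 had 45, and 4348, 656, 1406 and 11. P38 against P32 had 0, and 4741, 201, 932 and 1. P32 and P38 against P30 had 0 each, and 25 and 45 with DESeq2. P38 against P34 had 37, and 115 with no filter, 144 with DESeq2 and 71 with only these groups fitted. All cKO mice against P30 had 67, and 113 with rod scaling, 147 with no filter, 151 with DESeq2, 10 with these groups fitted as 2 and 21 with sex as a term, and that term gave 92 for P34 against P32. Leaving out 1 mouse gave 43 (without mouse 8) to 213 (without mouse 6) for P34 against P30 and 8 to 58 for P38 against P34. For P34 against P32 it gave 2726 without mouse 6 and 14 to 47 otherwise, and for P38 against P32 1946 without mouse 6 and 0 to 3 otherwise. For all cKO mice it gave 0 without P30 mouse 2, 2 without mouse 3 and 108 without mouse 1. P32 and P38 against P30 reached 19 and 13. No paired analysis was possible because the titles number the mice 1 to 12 and no number is shared between groups.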
